A study of Homo sapiens with 24 samples.

Results

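The genes described here are a list of 39 genes of ribosome biogenesis, followed in KARPAS-422 cells treated with an EZH2 inhibitor or with DMSO. A gene was represented by the brightest, over all 24 arrays, of the probe sets that list it alone. By that rule 32 of the 39 genes were measured, among 19775 genes in all. The 7 that were not matched by name to such a probe set, and are not analysed here, are NOP56, DKC1, GNL3, BOP1, PPAN, DDX18 and EBNA1BP2.

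KARPAS-422 is an established cell line of diffuse large B cell lymphoma, a cancer of B cells. All 24 samples carry EZH2 Y641N, a change in the catalytic domain of the histone methyltransferase EZH2. Cells received the inhibitor at 5 uM (EZH2i, 4 groups) or the vehicle DMSO (4 groups), and RNA was taken at days 1, 2, 3 and 6, with 3 biological replicates in each of the 8 groups. The study is of 1 cell line and 1 dose, the inhibitor is not named in the labels, and nothing says whether replicates were separate cultures, so the p-values measure the spread between these samples. Expression is given as log2 values from U133 Plus 2 arrays, so that a difference of −1 is a halving of the signal.

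Ribosomes are assembled in the nucleolus, where RNA polymerase I transcribes the long precursor of the ribosomal RNAs. Small nucleolar ribonucleoproteins (snoRNPs) of the box C/D and box H/ACA classes methylate and pseudouridylate the precursor, and large sets of assembly factors then fold, cut and package it into the small and the large subunit. The pathway takes much of the energy of a dividing cell, its genes are classical targets of the transcription factor MYC, and growing lymphoma cells keep it highly active.

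All 32 measured genes were lower in the inhibitor arm than in the DMSO arm at day 6, with a median difference of −0.81 and a range from −1.32 (LYAR) to −0.21 (NHP2). In limma's fit over all genes, with p-values adjusted by Benjamini and Hochberg, each of the 32 passed the threshold of 0.05, against 26.9% of all genes called lower at that day. The difference built up over the time course: 0 of the 32 genes were called at day 1, 5 at day 2 and 20 at day 3, and none was called higher at any day. With the replicate number blocked, the counts at days 2 and 3 were 11 and 28. In the fit without a block, the share of all genes called lower was 0.0101% at day 1, 0.824% at day 2 and 7.65% at day 3. The share called higher in that fit was 0.475%, 3.57%, 8.64% and 18.5% at days 1, 2, 3 and 6. The median difference over the 32 genes was −0.05, −0.21, −0.34 and −0.81 at days 1, 2, 3 and 6, and that of all genes was −0.01, −0.04, −0.04 and −0.11. At day 6, 19 of the 32 genes lay below −0.75, the 5th percentile of all genes, and 30 lay below −0.28, the 25th percentile.

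**Figure D1:**
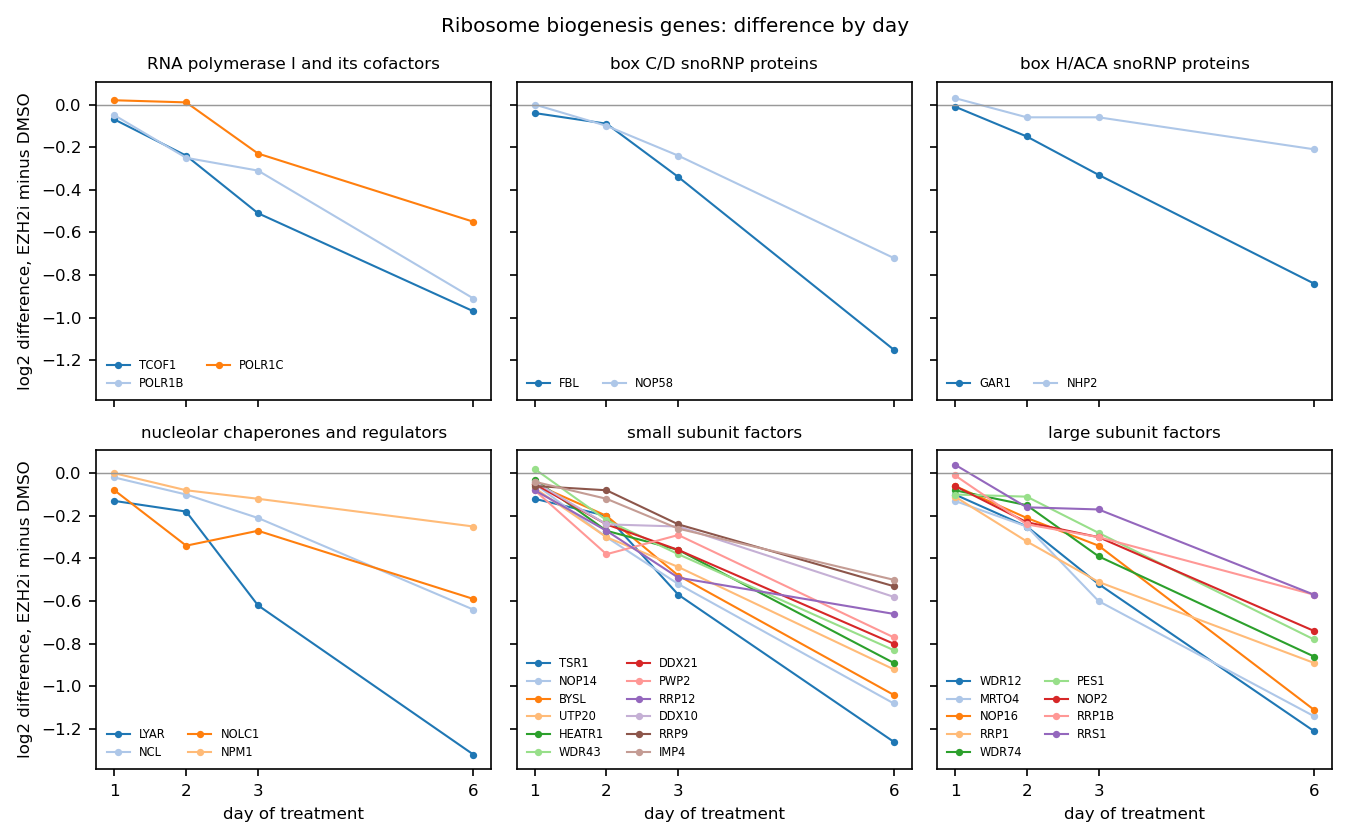
The difference in log2 expression (EZH2i minus DMSO, vertical axis) of each of the 32 measured genes against the day of treatment (horizontal axis, to scale), in 6 panels by role; each line is 1 gene and each point a difference of 2 groups of 3 arrays. The lines lie close to 0 at day 1 and between −0.21 and −1.32 at day 6, with NHP2 and NPM1 nearest to 0.

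The array medians ran from 4.958 to 5.032. RMA normally sets all arrays to 1 distribution, so these medians do not show whether the RNA amounts were alike. Of 8 B cell markers 7 were measured in the labelled B cell line, with means from 8.37 to 12.63. The 8 myeloid markers lay between 3.43 and 4.98, and the mean of their list was 3.77 to 3.98 in the 8 groups. Of 9 T and NK cell markers, CD3G (10.95) and CD3D (7.12) were bright and the others reached at most 5.32, and the mean of that list was 5.05 to 5.23 in the groups. The stromal and epithelial list had group means from 4.82 to 5.13, and most of its genes were dim, but PECAM1, which endothelial cells and some leukocytes carry, went from a mean of 5.08 in DMSO to 9.28 with the inhibitor at day 6. CD3D went from 7.42 to 6.84 and the B cell marker CD79B from 10.50 to 11.60 at that day. The day 6 calls were 1 lower and 3 higher of 7 B cell markers, 1 lower of 9 T and NK cell markers, 3 lower of 8 myeloid markers, and 2 lower and 2 higher of 10 stromal and epithelial markers. Of all genes, 26.9% were called lower and 18.5% higher at that day. The part of other cells in the results was not tested. In bulk RNA of this kind, fewer cells that express a gene and less of its RNA per cell cannot be told apart.

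Expression of EZH2 itself differed by 0.05, −0.09 and −0.29 at days 1, 2 and 3, none of them called, and fell by 0.64 at day 6 (SE 0.12, limma's adjusted p = 8.9e-05). At day 3 EZH2 read 10.29, 10.41 and 10.16 in DMSO and 10.08, 9.97 and 9.94 with the inhibitor, without overlap. Under 4 of 19 alternatives EZH2 was called at day 3.

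Among the 3 genes of RNA polymerase I and its cofactors the median difference at day 6 was −0.91, and all 3 fell. TCOF1 encodes treacle, a nucleolar phosphoprotein needed for transcription of the ribosomal RNA genes and the main gene of Treacher Collins syndrome. At day 6 its log2 expression was 8.09, 8.12 and 8.12 in the DMSO arrays and 7.13, 7.18 and 7.09 in the inhibitor arrays. The 2 groups were far apart, with replicates within 0.09 of each other in the inhibitor arm, and the difference was −0.97 (SE 0.06, limma's adjusted p = 1.7e-11). POLR1B, a large catalytic subunit of the enzyme, stood at 10.05, 9.95 and 9.94 in DMSO and at 9.28, 8.99 and 8.96 with the inhibitor. It fell by 0.91 (SE 0.10), without overlap of the arrays. POLR1C, a subunit shared with RNA polymerase III, fell by 0.55 (SE 0.12), and its arrays came closer together, with 8.76 as the lowest DMSO value and 8.63 as the highest inhibitor value.

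Both measured box C/D snoRNP proteins fell by day 6. Fibrillarin (FBL) is the methyltransferase that modifies the ribose of ribosomal RNA at sites chosen by box C/D guide RNAs. Its day 6 values were 12.02 in each of the 3 DMSO arrays and 11.01, 10.79 and 10.82 in the inhibitor arrays. The arms were about 1 log2 unit apart at their closest arrays, and the difference was −1.15 (SE 0.07, limma's adjusted p = 1.8e-11), or 2.21-fold lower. NOP58, a core scaffold of the same particle, fell by 0.72 (SE 0.08).

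The 2 measured box H/ACA proteins differed from each other in size. GAR1, a core protein of the pseudouridylating particle, read 10.98, 10.96 and 10.87 in DMSO and 10.19, 10.11 and 9.98 with the inhibitor at day 6, a fall of 0.84 (SE 0.07). NHP2, a second core protein of the same particle, read 12, 12.11 and 12.14 against 11.80, 11.91 and 11.90. All 3 inhibitor arrays of NHP2 were below all 3 DMSO arrays, but by 0.09 at the closest point. Its difference of −0.21 (SE 0.06, limma's adjusted p = 0.0099) was the smallest of the 32. The call was lost under 5 of 19 alternatives (highest adjusted p 0.23): relative to the median of all genes, with only the groups compared, and without replicate 1, 2 or 3.

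The nucleolar chaperones and regulators held both the largest fall and one of the smallest. LYAR, a nucleolar zinc finger protein that promotes pre-ribosomal RNA processing, read 10.75, 10.80 and 10.71 in DMSO and 9.36, 9.54 and 9.40 with the inhibitor at day 6. The lowest DMSO array stood 1.17 above the highest inhibitor array. The difference was −1.32 (SE 0.08, limma's adjusted p = 2.1e-11), which is 2.49-fold lower. Nucleolin (NCL), an abundant RNA binding protein of the nucleolus, fell by 0.64 (SE 0.07), from a mean of 12.48 to 11.84. NOLC1, a chaperone of snoRNPs that travels between nucleolus and Cajal bodies, fell by 0.59 (SE 0.10). Nucleophosmin (NPM1), a histone chaperone and one of the most abundant nucleolar proteins, read 13.63, 13.62 and 13.56 in DMSO and 13.45, 13.26 and 13.35 with the inhibitor. These values lie near the top of the scale of the arrays, whose highest value is 14.33. The difference of NPM1 was −0.25 (SE 0.06, limma's adjusted p = 0.0014), and its call was lost relative to the median of all genes or without replicate 2 (adjusted p at most 0.084).

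All 12 small subunit factors fell by day 6, with a median of −0.81 and a range from −1.26 to −0.50. TSR1, a late maturation factor of the small subunit related to translational GTPases, read 10.28, 10.36 and 10.30 in DMSO and 9.04, 9.08 and 9.02 with the inhibitor. Replicates lay within 0.08 of each other in both arms, and the lowest DMSO array stood 1.20 above the highest inhibitor array. The difference was −1.26 (SE 0.06, limma's adjusted p = 6.4e-13), or 2.40-fold lower. NOP14, part of the early small subunit processome, went from 9.37, 9.32 and 9.27 in DMSO to 8.37, 8.08 and 8.26 with the inhibitor, a fall of 1.08 (SE 0.09). BYSL, bystin, binds the small subunit precursor late in nuclear maturation. It went from 8.97, 9.18 and 9.30 to 7.98, 8.13 and 8.22, a fall of 1.04 (SE 0.10).

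The other small subunit factors were spread more narrowly. UTP20 fell by 0.92, HEATR1 by 0.89 and WDR43 by 0.83. These 3 are components of the processome that binds the precursor RNA, and their standard errors (0.17, 0.19 and 0.15) were larger than those of most genes, because their replicates differed more. HEATR1 read 10.75, 10.45 and 10.36 in the DMSO arrays of day 6 and 9.96, 9.47 and 9.45 in the inhibitor arrays, so that replicate 1 was the highest in both arms. DDX21, an RNA helicase, fell by 0.80, PWP2, a scaffold of the processome, by 0.77, and RRP12, a factor for export of the small subunit, by 0.66. The helicase DDX10 fell by 0.58. RRP9 and IMP4 belong to the particle of the small nucleolar RNA that guides the early cuts of the precursor, and fell by 0.53 and 0.50. RRP9 was the dimmest gene of the list, with a mean of 6.95 over the 24 arrays, and its call was lost without replicate 2 (adjusted p = 0.11).

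All 9 measured large subunit factors fell by day 6, with a median of −0.86. WDR12 and PES1 belong to one complex, PeBoW, needed to process the RNA of the large subunit. WDR12 read 10.98, 10.98 and 10.94 in DMSO and 9.89, 9.75 and 9.63 with the inhibitor, which is 2.31-fold lower (difference −1.21, SE 0.07, limma's adjusted p = 1.3e-11). PES1 fell less, by 0.78 (SE 0.07), from 8.85, 8.85 and 8.98 to 8.21, 8 and 8.12. The difference between the falls of WDR12 and PES1 was not tested. BOP1, the other protein of that complex, is among the genes not analysed here.

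MRTO4 holds the place of the ribosomal stalk on the precursor of the large subunit. It read 9.91, 9.91 and 10.05 in DMSO and 8.81, 8.70 and 8.94 with the inhibitor, a fall of 1.14 (SE 0.10). NOP16, a nucleolar assembly factor, read 11.31, 11.38 and 11.31 against 10.22, 10.20 and 10.23, a fall of 1.11 (SE 0.07). In both genes every inhibitor array lay more than 0.9 below every DMSO array. RRP1 and its paralogue RRP1B fell by 0.89 (SE 0.07) and 0.57 (SE 0.12), WDR74 by 0.86, the RNA methyltransferase NOP2 by 0.74, and RRS1, which helps to load the ribosomal RNA made by RNA polymerase III, by 0.57. The call of RRP1B was lost without replicate 2 (adjusted p = 0.054). With LYAR, TSR1, FBL, NOP14, BYSL, WDR12, MRTO4 and NOP16, 8 of the 32 genes were at least 2-fold lower.

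**Figure D2:**
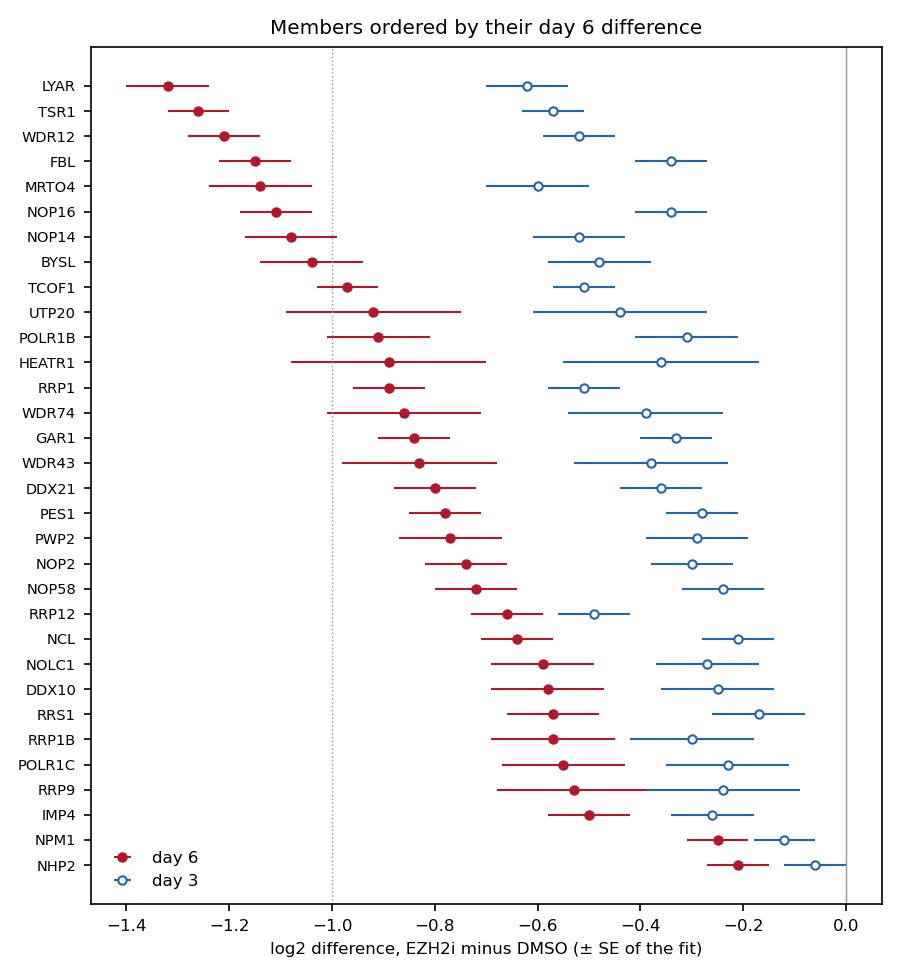
Each of the 32 measured genes (rows) with its difference in log2 expression, EZH2i minus DMSO (horizontal axis), at day 6 (filled) and day 3 (open), with bars of 1 SE of the fit; the dotted line marks −1, a halving. Every day 6 point lies left of its day 3 point, and 8 genes lie left of the dotted line.

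In all 32 genes the 3 inhibitor arrays lay below the 3 DMSO arrays at day 6, which held for 32.3% of all genes. At day 3 this was so for 23 of the 32 (17.5% of all genes), at day 2 for 17 (13.4%) and at day 1 for 4 (5.33%). At day 3 the genes whose arrays overlapped were NHP2, RRP9, UTP20, WDR43, HEATR1, PWP2, DDX10, NOP2 and RRS1.

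At day 1 the differences ran from −0.13 (LYAR and MRTO4) to 0.04, and 28 of the 32 were below 0. No gene was called by limma, and none had an unadjusted p under 0.05. The 95% intervals of all 32 included 0, and they reached from 0.12 (NPM1) to 0.40 (HEATR1) to each side of the difference, with a median of 0.17. The lowest p was that of TSR1, with a difference of −0.12 (SE 0.06, unadjusted p = 0.054 in limma's fit). Its values were 10.40, 10.45 and 10.46 in DMSO and 10.21, 10.35 and 10.39 with the inhibitor, so the closest arrays were 0.01 apart.

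At day 2, 5 genes fell. PWP2 had the largest fall of the 5, from 9.16, 9.21 and 9.23 in DMSO to 8.90, 8.76 and 8.81 with the inhibitor, a difference of −0.38 (SE 0.10, limma's adjusted p = 0.026). NOLC1 fell by 0.34 (adjusted p = 0.044), from 10.59, 10.64 and 10.43 to 10.28, 10.23 and 10.13. RRP1 fell by 0.32 (adjusted p = 0.0087), from 8.29, 8.38 and 8.43 to 7.97, 8.01 and 8.15. By the probe sets used, none of these 3 genes is among the 8 with the largest falls at day 6. For NOLC1 this depends on the probe set: the one used gave −0.59 at that day and its others −1.55 and −1.08. The other probe sets of PWP2 and RRP1 gave smaller differences than those used.

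RRP12, the factor for small subunit export, fell by 0.27 (adjusted p = 0.031), from 7.59, 7.70 and 7.65 to 7.47, 7.29 and 7.39. TCOF1 fell by 0.24 (adjusted p = 0.019), from 8.02, 8.07 and 8.04 to 7.78, 7.79 and 7.83. In all 5 genes the 2 arms did not overlap. WDR12 (−0.25) and NOP14 (−0.30) came next, each with an adjusted p of 0.055. An unadjusted p under 0.05 was found for 16 of the 32 genes, all lower, against 1796 of all 19775 genes in that direction.

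The 5 calls of day 2 depended on single arrays. Leaving out any 1 of the 6 arrays of that day left 1 to 3 calls: 3, 1 and 1 without DMSO replicate 1, 2 or 3, and 3, 1 and 2 without inhibitor replicate 1, 2 or 3. With the replicate number blocked, the count at day 2 was 11, or 13 with a block within each day. The shares of all genes are those of the fit without a block, so the blocked counts have no such share beside them.

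At day 3 the median difference was −0.34 and 20 genes fell. The largest differences were those of LYAR (−0.62, SE 0.08), MRTO4 (−0.60, SE 0.10) and TSR1 (−0.57, SE 0.06). LYAR read 10.69, 10.58 and 10.59 in DMSO and 10.08, 9.96 and 9.97 with the inhibitor, and TSR1 read 10.24, 10.19 and 10.26 against 9.70, 9.67 and 9.61. In both genes the arms were about 0.5 apart at their closest arrays. By role, the calls were 2 of 3 genes of RNA polymerase I, both box C/D proteins, 1 of 2 box H/ACA proteins (GAR1), 2 of 4 chaperones (LYAR and NCL), 7 of 12 small subunit factors and 6 of 9 large subunit factors.

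The 12 genes without a call at day 3 had differences from −0.44 (UTP20) to −0.06 (NHP2). With the replicate number blocked, 8 of these 12 were called: DDX10 (adjusted p = 0.038), HEATR1 (0.015), NOLC1 (0.018), POLR1C (0.044), RRP1B (0.0066), UTP20 (0.0043), WDR43 (0.012) and WDR74 (0.00066). With a block within each day RRP9 was called as well (adjusted p = 0.049). How many of all genes a block adds at this day is not given. HEATR1 shows the kind of values behind this: it read 10.74, 10.36 and 10.20 in DMSO and 10.42, 9.98 and 9.82 with the inhibitor, so that the arms overlapped while each inhibitor array was below the DMSO array of its own number by 0.3 to 0.4. NHP2, NPM1 and RRS1 were called under neither block.

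The count of 20 at day 3 fell to 10 when replicate 2 was left out of every group and to 11 without replicate 3, while single arrays of that day gave 14 to 21. The call was lost under none of the alternatives tried in 6 of the 20 genes, which were BYSL, LYAR, MRTO4, NOP14, RRP1 and WDR12.

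**Figure D3:**
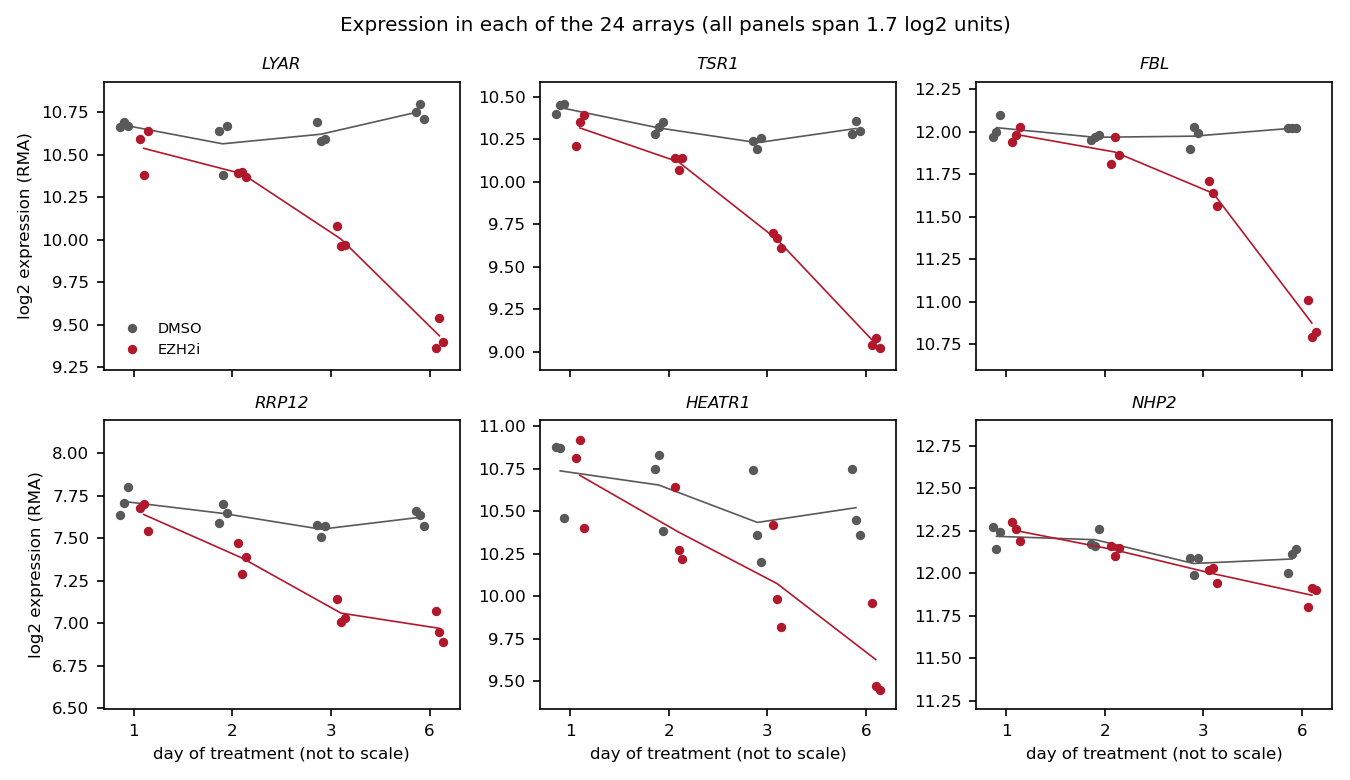
Log2 expression (vertical axis, all panels spanning the same range) of LYAR, TSR1, FBL, RRP12, HEATR1 and NHP2 in each of the 24 arrays by day (horizontal axis, not to scale); points are arrays and lines join the group means of DMSO (grey) and EZH2i (red). The DMSO means of the 6 genes stay within 0.30 of their day 1 value, with HEATR1 and TSR1 0.30 and 0.21 below it at day 3. The inhibitor values of LYAR, TSR1 and FBL lie more than 1 below the DMSO values at day 6, those of RRP12 overlap between days 3 and 6, and NHP2 differs by 0.21 at day 6.

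In 29 of the 32 genes the difference was lower at each later day than at the day before. The exceptions were PWP2 (−0.38 at day 2 and −0.29 at day 3), NOLC1 (−0.34 and −0.27) and NHP2 (−0.06 at both days), and none of these steps exceeded its error. At day 3 the genes had reached a median of 44.7% of their day 6 difference, and at day 2 a median of 25.5%. RRP12 was the furthest along at day 3, with 75.1%, and NHP2 (27.3%), FBL (29.4%) and NOP16 (30.4%) were the least far. Across the 32 genes the order of the day 3 differences resembled that of day 6 (Spearman's rho 0.86, Pearson's r 0.85). The genes share the same arrays within each day, and the coefficients are a description.

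The growth of the difference was tested as the change of the effect between days. From day 3 to day 6 the effect grew in 19 of the 32 genes (6.53% of all genes went lower), with a median change of −0.47 against −0.05 over all genes. With the replicate number blocked the count was 25, and 27 with a block within each day. FBL changed most, by −0.81 (SE 0.10, limma's adjusted p = 1.1e-05): its DMSO and inhibitor means were 11.97 and 11.63 at day 3 and 12.02 and 10.87 at day 6. NOP16 followed with −0.77 (SE 0.10, adjusted p = 2.6e-05), then LYAR with −0.70 (0.00025), TSR1 with −0.69 (1.4e-05) and WDR12 with −0.69 (8.6e-05). All 5 had less than 50% of their day 6 difference at day 3.

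The smallest changes from day 3 to day 6 were those of NPM1 (−0.14, SE 0.08, adjusted p = 0.34), NHP2 (−0.15, SE 0.09, 0.32) and RRP12 (−0.16, SE 0.10, 0.35). RRP12 read 7.14, 7.01 and 7.03 with the inhibitor at day 3 and 7.07, 6.95 and 6.89 at day 6, and these values overlap. From day 1 to day 2 and from day 2 to day 3 no gene of the list was called by limma, as no gene of the whole table was in either direction. The unadjusted p was under 0.05 for 2 and 7 of the 32, all lower, against 456 and 621 of all 19775 genes in that direction. From day 1 to day 6, 30 of the 32 were called (14.4% of all genes), all but NHP2 (−0.24, adjusted p = 0.051) and RRP9 (−0.47, 0.12), and all 32 were called under either block. Without replicate 2 in any group the count from day 3 to day 6 fell from 19 to 6, and without replicate 3 to 12, and single arrays gave 16 to 19.

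The calls against day 1 lay in the inhibitor arm. Against its own day 1, the inhibitor arm had 0 genes called at day 2, 26 lower at day 3 and 32 lower at day 6, with median differences of −0.18, −0.43 and −0.76. The shares of all genes called lower in these comparisons were 0.167%, 8.75% and 24%. The DMSO arm had 0 genes called against its day 1 at days 2, 3 and 6, with medians of −0.01, −0.11 and −0.02 (background 0.0101%, 0.0759% and 0.0506%). The unadjusted p was under 0.05 for 0, 7 and 1 genes there, all lower, against 375, 1020 and 917 of all 19775 genes in that direction. At day 3 all 32 differences of the DMSO arm were below 0. The 6 genes not called in the inhibitor arm at day 3 were NPM1, NOLC1, RRP9, WDR43, RRP1B and WDR74. With the replicate number blocked, 31 genes were called in that arm at day 3 and 3 at day 2. Without replicate 2 in any group the count of 26 fell to 11.

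Array by array, the median of the 32 genes relative to the mean of the DMSO arrays of day 1 was between −0.05 and 0.02 in all DMSO arrays outside day 3. In the 3 DMSO arrays of day 3 it was −0.03, −0.14 and −0.14, with 20, 29 and 30 of the 32 genes below 0. The inhibitor arrays stood at −0.05, −0.01 and −0.08 at day 1, at −0.20, −0.23 and −0.28 at day 2, at −0.41, −0.46 and −0.51 at day 3, and at −0.78, −0.85 and −0.88 at day 6. No inhibitor array from day 2 on reached the level of any DMSO array. Replicates 2 and 3 of the DMSO arm were thus lower at day 3 than replicate 1, and the difference between the arms at that day is measured against those arrays.

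Over the mean of the 4 days 31 of the 32 genes were called lower (27.4% of all genes), with a median of −0.37. The gene without a call was NHP2 (−0.07, limma's adjusted p = 0.061), and it was called under either block.

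Of the 32 genes 20 have further probe sets with the same single symbol, 38 in all, which were fitted with all 54613 probe sets of the array. At day 6, 25 of these 38 were called lower, against 20.4% of all probe sets, and none higher, against 16.3%. At days 1, 2 and 3 the counts called lower were 0, 3 and 11 of the 38, against 0.00183%, 0.32% and 4.39% of all probe sets. None was called higher at those days either, against 0.189%, 1.94% and 5.87%. Among the 18 with a mean of at least 7 the count at day 6 was 16 lower. The size often differed within a gene: at day 6, 11 of the 38 lay within 0.2 of the probe set used, and 9 of the 18 brighter ones. The probe sets with means of at least 7 lay close together in LYAR (−1.32 and −1.24), NOP16 (−1.11 and −1.21), TCOF1 (−0.97 and −0.95) and DDX21 (−0.80 and −0.79).

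Other genes had unlike probe sets of high level. NPM1 gave −0.25 (200063_s_at, the one used), −0.65 (221691_x_at) and −1.21 (221923_s_at), all called, so the small fall above holds for its brightest probe set and the others showed larger ones. NPM1 is known for many processed pseudogenes, and which probe sets read them was not tested. NOLC1 gave −0.59 (211951_at), −1.55 (205895_s_at) and −1.08 (211949_s_at). TSR1 gave −1.26 (218156_s_at) and −1.33 (221987_s_at), but 0.01 (SE 0.11) for 218155_x_at, whose name marks probes shared with other transcripts. POLR1B gave −0.91 for the one used and −0.50, −0.25 (SE 0.10, not called) and −0.77 for the others, whose means were 7.35 to 8.10.

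Further unlike values came from probe sets with a mean under 7. RRP1 gave −0.89 and −0.03 (mean 6.74), PES1 −0.78 and 0.03 (mean 3.71), and DDX10 −0.58 and −0.09 (mean 2.77), and none of these second values was called. PWP2 gave −0.77 for the one used and −0.14 and −0.18, not called, for others with means of 6.45 and 5.68. WDR12 gave −1.21 and, at means of 6.09 and 5.90, −0.27 and −0.45, both called. In RRP1B the dimmer probe set (mean 6.84) showed the larger fall, −0.97 against −0.57. The dimmer probe sets of NOP16 gave −0.30 and −0.09, and that of TCOF1 gave −0.34. RRP12 gave −0.66 for the probe set used, −0.28 for 216360_x_at, and 0.03, 0.07 and −0.14, none of them called, for 3 dim ones with means of 5.12 or less. When probe sets ending in _x_at or _s_at were left out, RRP12 was represented by 1 of the dim ones.

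**Figure D4:**
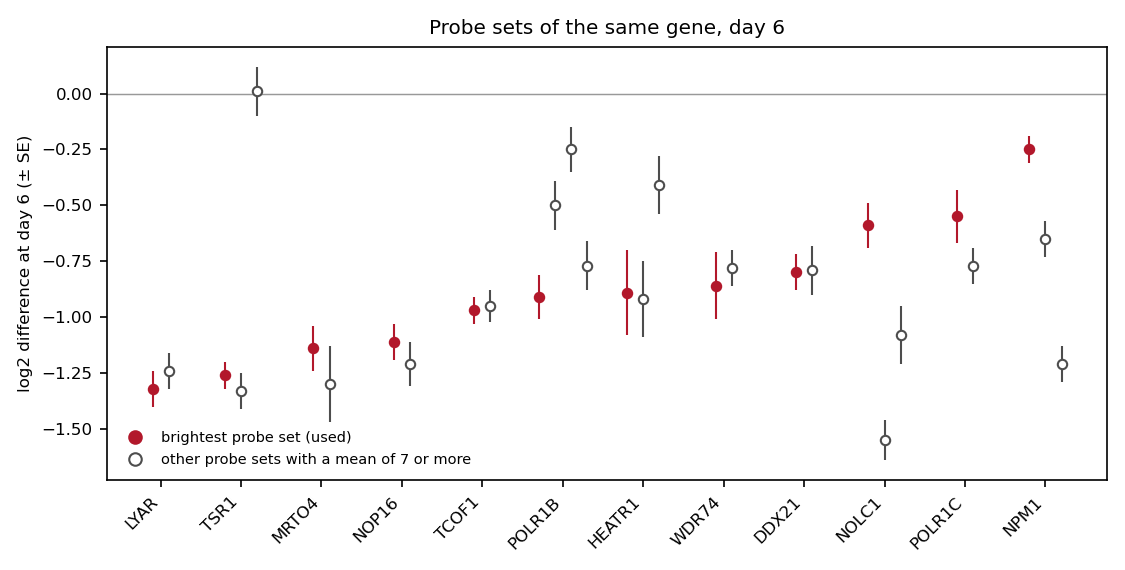
Difference in log2 expression at day 6 (EZH2i minus DMSO, vertical axis, bars of 1 SE) for the 12 genes (horizontal axis) that have more than 1 probe set with a mean of at least 7; filled points are the probe set used and open points the others. Most points lie between −0.4 and −1.6, and the probe set of TSR1 at 0.01 stands apart. In NPM1 and in NOLC1 the used probe set shows a smaller fall than the others of the same gene.

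A further 140 genes of ribosome biogenesis, listed from general knowledge and with no gene in common with the 39, gave 138 measured genes. At day 6, 118 of these fell and 2 rose (26.9% and 18.5% of all genes), with a median of −0.54. At days 1, 2 and 3 the counts that fell were 0, 5 and 64 (0.0101%, 0.824% and 7.65% of all genes), and none rose. The lowest were EXOSC2 (−1.29, SE 0.18), a subunit of the RNA exosome that trims the precursor, UTP15 (−1.10) and UTP4 (−1.07) of the processome, BRIX1 (−1.08) and LAS1L (−1.08) of the large subunit, and NUFIP1 (−1.05), which helps to assemble box C/D particles. The call of LAS1L was lost without probe sets ending in _x_at or _s_at (limma's adjusted p = 0.086). Its difference lay between −1.11 and −0.25 under 20 alternatives.

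RBM19, a nucleolar RNA binding protein, rose by 0.46 (SE 0.10, limma's adjusted p = 0.00072), and TAF1C, a subunit of the selectivity factor of RNA polymerase I, rose by 0.34 (adjusted p = 0.0059). The call of TAF1C was lost without replicate 1 or without replicate 2. Next to them in order among the called genes, NSA2 fell by 0.20 (adjusted p = 0.016) and DDX24 by 0.17 (0.035), and these calls were lost under 7 of 20 and 13 of 19 alternatives.

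The protein components of the ribosome itself were measured on the same arrays. The median over 53 measured genes for cytosolic ribosomal proteins was 0.06 at day 6. Of these, 3 fell and 12 rose, against 26.9% of all genes called lower and 18.5% called higher. The 3 that fell were RPL3 (−0.49, SE 0.07, limma's adjusted p = 2.3e-06), RPL8 (−0.16, 0.049) and RPS6 (−0.15, 0.037). RPS6 was named after its value was seen. The calls of RPL8 and RPS6 were each lost under 12 of 20 alternatives. The direction of this list depended on the scaling and on the probe sets. Relative to the median of all genes it had 1 lower and 30 higher and a median of 0.17, and without probe sets ending in _x_at or _s_at it had 4 lower and 4 higher of 30 and a median of −0.04. These probe sets have a median level of 13.61, near the top of the range of the arrays.

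Genes of DNA replication differed between the arms as well. Of 31 measured, 0, 2, 26 and 31 fell at days 1, 2, 3 and 6 (0.0101%, 0.824%, 7.65% and 26.9% of all genes). The medians of the 31 were −0.04, −0.21, −0.49 and −1.46. At day 6 the lowest were ORC1 (−2.38, SE 0.13) of the origin recognition complex and MCM10 (−2.33, SE 0.10), a factor that activates the replicative helicase. The part of a change in cell division in the fall of the ribosome biogenesis genes was not tested.

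**Figure D5:**
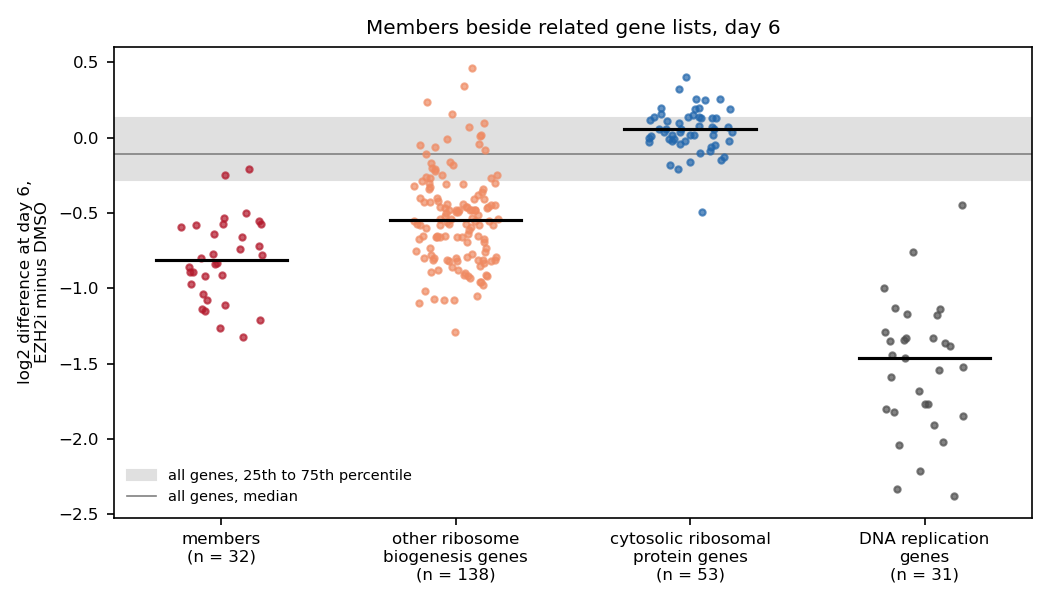
Difference in log2 expression at day 6 (EZH2i minus DMSO, vertical axis) of single genes (points, spread sideways at random) in 4 lists (horizontal axis), with the median of each list as a black bar; the grey band spans the 25th to 75th percentile of all genes, −0.28 to 0.13, and its line their median of −0.11. The 32 ribosome biogenesis genes have a median of −0.81, the other ribosome biogenesis genes −0.54, the ribosomal protein genes 0.06 and the DNA replication genes −1.46.

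MYC, whose product drives transcription of many of these genes in growing cells, was measured on the same arrays. At day 6 it read 12.14, 11.98 and 12.10 in DMSO and 11.66, 11.18 and 11.20 with the inhibitor, a fall of 0.73 (SE 0.12, limma's adjusted p = 5e-05). At day 3 it read 12.04, 11.88 and 11.99 against 12.01, 11.77 and 11.85, and the arms overlapped. The differences at days 1, 2 and 3 were 0.01, −0.10 and −0.10 (SE 0.12 each, adjusted p = 1, 0.75 and 0.67), with 95% intervals of −0.25 to 0.27, −0.35 to 0.16 and −0.35 to 0.16. At day 3, when MYC had no call, 20 of the 32 ribosome biogenesis genes had one, and the standard error of MYC exceeded that of most of them. Whether the timing of MYC differed from theirs was not tested.

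Of 12 measured genes of the MYC network 3 fell at day 6 (MYC, MYCN by 0.33 and MXD1 by 0.24). Another 3 were called higher, MXI1, MAX and MLX. Of all genes, 26.9% were called lower and 18.5% higher at that day, so these counts are near the shares of all genes. The call of MYCN was lost under 2 of 20 alternatives and that of MXD1 under 8 of 20. MXI1 encodes a protein that competes with MYC for the partner MAX, and it rose at day 2 (0.64, adjusted p = 0.0069), day 3 (0.83) and day 6 (1.31, SE 0.14, adjusted p = 7.3e-08). The day 2 call of MXI1 was lost without replicate 2 of all groups or without DMSO replicate 1. At day 1 MXI1 had no call as reported. Its day 1 difference lay between 0.31 and 0.63 under 20 alternatives, and 3 of them gave a call. The gene was named after its values were seen. The call of MAX (0.42) depended on the probe set, with −0.74 when probe sets ending in _x_at or _s_at were left out, and MLX gave 0.26 and −0.01 in the same way.

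The promoters of the genes were searched for CACGTG, the canonical E-box that MYC binds together with MAX, because the genes moved together. The sequence is its own reverse complement, so that a match stands on both strands. The windows are those of RefSeq in GRCh38.p14, from 250 bases before to 50 bases after the start of transcription, and were listed for 31 of the 39 genes and 26 of the 32 measured ones. Of the 31 genes 16 had a match (51.6%), and of the 26 measured 14 (53.8%). Counted over promoters, since some genes have several starts, the shares were 41.5% of 41 and 42.4% of 33, against 7.26% of all 35116 promoters of the same length and 8.36% of those of the genes tested. Genes called lower at day 6 had a share of 9.74% of promoters, the other ribosome biogenesis genes 26.8%, ribosomal protein genes 5.13% and DNA replication genes 8.57%. The median GC content was 63.7% in the promoters of the measured genes and 62.7% in those of all genes tested. A match describes these letters only, and no binding was measured.

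The promoters of the 2 genes with the lowest day 6 difference are printed in full, 5′ to 3′ on the strand of the gene, with a match in capitals. LYAR has 1 match, which begins 64 bases before the start, and TSR1 has none.
LYAR promoter, chr4:4289972-4290271, minus strand: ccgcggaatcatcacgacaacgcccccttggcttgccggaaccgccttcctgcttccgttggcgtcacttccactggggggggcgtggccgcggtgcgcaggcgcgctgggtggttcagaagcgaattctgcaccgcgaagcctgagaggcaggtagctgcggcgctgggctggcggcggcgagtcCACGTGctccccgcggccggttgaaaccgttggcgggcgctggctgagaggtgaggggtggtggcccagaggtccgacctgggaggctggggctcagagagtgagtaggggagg
TSR1 promoter, chr17:2336408-2336707, minus strand: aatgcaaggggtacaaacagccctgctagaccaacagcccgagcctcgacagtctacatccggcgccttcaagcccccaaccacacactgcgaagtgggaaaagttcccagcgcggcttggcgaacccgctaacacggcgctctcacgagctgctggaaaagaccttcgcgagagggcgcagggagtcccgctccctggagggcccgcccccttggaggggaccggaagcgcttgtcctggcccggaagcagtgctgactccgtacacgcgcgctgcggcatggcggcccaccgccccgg
LYAR and TSR1 thus differ in this motif, and their falls were −1.32 and −1.26. By the probe sets used, NPM1 and NHP2 had the smallest falls at day 6 (−0.25 and −0.21), and neither has a match. The other probe sets of NPM1 gave −0.65 and −1.21. Whether the motif bears on the size of a fall was not tested.

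Over all genes of the list 18 matches were found, 15 of them within 50 bases of the start and 12 after it. The windows below show the match with 12 bases on each side. The first 4 are those of genes at least 2-fold lower at day 6, then PWP2, which fell at day 2, and last RRP9 and IMP4, with the smallest falls among genes with a match.
FBL, chr19:39846356-39846385, minus strand: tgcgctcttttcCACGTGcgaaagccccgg
MRTO4, chr1:19251807-19251836, plus strand: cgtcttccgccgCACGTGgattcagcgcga
NOP14, chr4:2963374-2963403, minus strand: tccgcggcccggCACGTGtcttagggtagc
BYSL, chr6:41921515-41921544, plus strand: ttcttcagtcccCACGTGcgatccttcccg
PWP2, chr21:44107388-44107417, plus strand: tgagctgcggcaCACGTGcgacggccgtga
RRP9, chr3:51941892-51941921, minus strand: gggttcagctgcCACGTGagttctgcggcc
IMP4, chr2:130342900-130342929, plus strand: ttctcccggaccCACGTGgaagcggcactc
The matches begin 7, 15, 16, 29 and 2 bases after the start in FBL, MRTO4, NOP14, BYSL and PWP2, 5 bases before it in RRP9 and 16 bases after it in IMP4, which has another match further upstream. The bases that flank the motif differ from gene to gene.

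Genes with and without a match had close medians. The 14 measured genes with a match had medians of −0.35 at day 3 and −0.84 at day 6, with a range from −1.32 to −0.50 at day 6. The 12 without a match had medians of −0.32 and −0.88, with a range from −1.26 to −0.21. No test was made of these numbers, and a window without the letters says nothing of other sites of the gene.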

How the data were processed

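Total RNA of KARPAS-422 cells was hybridised to 24 U133 Plus 2 arrays, 3 for each of 8 groups, per the labels' protocols. The deposited log2 values of 54613 probe sets come from RMA, run by the authors in R 2.10.1 according to their processing notes, per the labels. The log base is not stated, and the range of 1.72 to 14.33 is that of RMA on a log2 scale. RMA normally sets all arrays to 1 distribution, so a fall shared by all genes would not be seen.

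The list of genes, its roles, the related lists and the tests were chosen with earlier results of these data known. Roles and lists were written from general knowledge. GEO's platform annotation gives 41091 probe sets a single gene symbol, 1801 several and 11721 none. The brightest single-symbol probe set stood for each of the 19775 genes.

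Differences were fitted with limma 3.58.1 (lmFit with 8 group coefficients over all 24 arrays, then eBayes) in R 4.3.3 with data.table (1.17.8). Residual degrees of freedom were 16 and prior ones 5.22. The 2-sided p-values were adjusted by the Benjamini-Hochberg method across the 19775 genes within each contrast, a call is an adjusted p under 0.05, and "rose" and "fell" are kept for calls. Single genes carry limma's p-values, since an exact test with groups of 3 has a smallest p of 0.1. The number of arrays limits the precision. No p-value was computed for a list of genes.

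Genes named with values are, by a written rule, the lowest 2 of each role and the lowest 8 at day 6, those called at day 2, the 4 nearest to 0 at day 6, those with the largest change of the effect after day 3, the 6 lowest and 4 highest called of the other ribosome biogenesis genes, MYC, EZH2 and up to 2 called genes of each other list, and the remaining measured genes are given by their differences.

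Replicate numbers come from the labels. Same-numbered arrays of the 2 arms deviated together, with correlations over 0.1 in 11 of 12 pairs (0.04 for number 2 at day 2), so that every pair was over 0.1 at days 1, 3 and 6, and at day 2 the pairs of numbers 1 and 3 were. The fit reported has no block, and blocked counts of the 32 genes stand beside each count that a block changed. No 2 arrays were duplicates (highest correlation 0.998). Alternatives tried were averaging the probe sets of each gene, leaving out probe sets ending in _x_at or _s_at, array medians subtracted, quantile normalization repeated, differences relative to the median of all genes, leaving out the dimmest 40% of genes, eBayes with trend and robust settings, array weights, a fit of only the groups compared, replicate blocks, and leaving out replicates.

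Promoters are RefSeq's (GRCh38.p14), matched by symbol. No genome sequence was used beyond them.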

Additional observations from a re-analysis of the deposited data

Results flagged for a closer look

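The effect of the inhibitor differed between days. From day 3 to day 6 the difference between the arms went lower in 19 of the 32 ribosome biogenesis genes by limma's test of the change of the effect. The 4 largest changes were those of FBL (−0.81), NOP16 (−0.77), LYAR (−0.70) and TSR1 (−0.69). From day 1 to day 6 the difference went lower in 30 of the 32, and in all 32 with the replicate number blocked. Groups of 3 arrays were too small to be examined for arrays far from the others. In the DMSO arrays of day 3 the median of the 32 genes against DMSO day 1 was −0.14 in replicates 2 and 3 and −0.03 in replicate 1.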

How the results depend on the processing

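At day 6 the direction held under every alternative in all of the 32 genes but RRP12, which turned without probe sets ending in _x_at or _s_at. Under the 11 alternatives without a left-out array 25 to 32 were called lower, and none was called higher. The 25 are of the 26 genes that have a probe set not ending in _x_at or _s_at. The median at day 6 lay between −0.82 and −0.70, with −0.70 when differences were taken relative to the median of all genes. Calls at day 6 were lost somewhere for NHP2, NPM1, RRP1B, RRP9 and RRP12. The count at day 2 was 5 as reported. It was 3 with array medians subtracted, 9 with array weights, 8 with trend and robust settings, 1 relative to the median of all genes, 1 with only the groups compared, 11 with the replicate block, 13 with the block within day, 1 without probe sets ending in _x_at or _s_at, and 9 without the dimmest 40% of genes. At day 3 (20 as reported) it was 12 with only the groups compared and 12 without those probe sets. Without those probe sets the count was also 11 for the change from day 3 to day 6 (19) and 16 for the inhibitor arm at day 3 against day 1 (26). For the inhibitor arm at day 2 against day 1 (0) it was 3 with array weights, 3 with the replicate block and 2 without the dimmest genes. The replicate block changed no other count by more than 1.5 times, and the block within day was not run for comparisons of days within 1 arm.

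Direction turned for RRP12 without probe sets ending in _x_at or _s_at (0.08 at day 2 and 0.03 at day 6), for MAX (−0.02 with the mean of its probe sets, −0.74 without those ending in _x_at or _s_at) and for MLX (−0.01 without them); these settings use other, mostly dimmer probe sets. Leaving out replicates gave 0 to 0 calls at day 1, 0 to 3 at day 2, 10 to 21 at day 3 and 28 to 32 at day 6. The change of the effect gave 0 to 0 from day 1 to 2, 0 to 0 from day 2 to 3, 6 to 19 from day 3 to 6 and 20 to 31 from day 1 to 6. Against day 1, the DMSO arm gave 0 to 0, 0 to 1 and 0 to 0 at days 2, 3 and 6, and the inhibitor arm 0 to 1, 11 to 25 and 29 to 32. The mean of the 4 days gave 27 to 32. Settings that leave out arrays test with fewer samples, and the cause of the other moves was not tested. The number of arrays set the width of the intervals at day 1, which reached 0.12 to 0.40 to each side of the difference.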
